A study of Mus musculus with 48 samples.

Results

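Gclc, Gclm, Gss, Gsr, Slc7a11 and Slc3a2, the mouse genes for glutathione synthesis, glutathione reduction and cystine uptake, were followed through all 16 groups of a study of macrophages exposed to the compound AP-3-84. The 6 genes were taken by their symbols from a table of 51789 gene identifiers, and all 6 were found and tested. The table holds 48 libraries of 3′ mRNA sequencing, 3 in each group. Cells were incubated for 4 h with 10 µM AP-3-84 or with an equal amount of DMSO, called vehicle here. Ascites macrophages were washed from the peritoneum of mice 45 days after injection of ID8 ovarian cancer cells, and thioglycollate macrophages were collected 4 days after injection of 1 ml of 3% thioglycollate. Both were sorted with magnetic beads for F4/80, a macrophage surface protein. The other macrophages were grown from bone marrow stem cells of wild-type (WT) or p53 knockout (KO) B6 mice for 6 days in M-CSF at 10 ng/mL (M0). M1 cells had a further 24 h with LPS at 100 ng/mL and IFN-γ at 50 ng/mL, and M2 cells had a further 24 h with 10 ng/mL of each of the cytokines IL-4 and IL-13. All mice were labelled C57BL/6. The genotype field reads B6(Cg)-Tyrc-2J/J for the ascites libraries and wild-type for the thioglycollate libraries, so that difference and the origin of the cells cannot be told apart. That field reads wild-type for all 36 bone marrow libraries. WT and KO were therefore taken from the sample titles. The sources used here do not give ages, the part of the p53 gene that was deleted, or whether replicates came from separate animals or cultures, so p-values measure the spread between libraries, which may be technical.

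Glutathione is the most abundant small thiol of animal cells. Glutamate-cysteine ligase, made of a catalytic subunit (Gclc) and a modifier subunit (Gclm), joins glutamate to cysteine in the rate-limiting step, and glutathione synthetase (Gss) adds glycine. Glutathione reductase (Gsr) returns oxidized glutathione to its reduced form at the expense of NADPH. Cysteine is usually the limiting building block, and cells import its oxidized form, cystine, through system xc-, in which the light chain Slc7a11 exchanges cystine for glutamate and the heavy chain Slc3a2 brings it to the membrane. Slc3a2 is shared by several other amino acid transporters. Most of these genes are known targets of the transcription factor NRF2 (gene Nfe2l2), which KEAP1 holds in check, and Slc7a11 is also a target of ATF4, the factor of the amino acid and endoplasmic reticulum stress response. In macrophages, glutathione is drawn on during the oxidative burst, and p53 has been described as a repressor of Slc7a11.

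The 12 peritoneal libraries held 15532373 to 19417581 counts each. The 36 bone marrow libraries held 3081707 to 4645148, so peritoneal values rest on more reads. Levels are given as CPM, the usual scaling of a gene's count to its library's total, with TMM factors within each origin, and they are compared within a gene and within an origin only. The libraries are of bulk RNA, and a lower level in a group can mean fewer cells of a type or less RNA per cell, which cannot be told apart. The 8 macrophage markers summed to 6122 to 48821 CPM in the 48 libraries, with none at 0 in any library. That sum gives most weight to abundant genes. Lyz2 reached 564942 counts in a peritoneal and 160781 in a bone marrow library, against 42835 and 29776 for Csf1r, the next highest. A shift of the sum can therefore rest mostly on Lyz2. The sum of the 8 markers was lower in KO than in WT cells after M1 or M2 treatment, as given beside those comparisons. Their sum was also lower with AP-3-84 than with vehicle in ascites (24507 to 29064 against 29279 to 31080 CPM) and thioglycollate cells (28144 to 33314 against 34844 to 35331 CPM). In every bone marrow population the AP-3-84 and vehicle ranges overlapped, with KO M0 at 17999 to 38909 against 32556 to 39261 CPM. The part of these shifts in the AP-3-84 changes was not tested. The sum of 10 p53 target genes followed the labelled genotype, at 952 to 1907 CPM in WT and 215 to 579 CPM in KO bone marrow libraries, and Cdkn1a, the cell-cycle inhibitor among them, stood at 555 to 1119 against 34.1 to 292 CPM. Trp53 itself was low in both, at 4.79 to 13.2 CPM in WT and 2.70 to 9.11 CPM in KO, and its 3′ tags can lie outside the deleted part, so it checks nothing. In a list of 8 neutrophil genes, 5 libraries stood apart, with sums over 1500 CPM: WT M2 vehicle replicate 1 (3738), KO M1 vehicle replicates 1 (1629) and 3 (2386), KO M1 AP-3-84 replicate 1 (3441) and KO M2 vehicle replicate 3 (3063). WT M2 vehicle replicate 1 also held 6452 CPM of 11 LPS and IFN-γ response genes, against 919 and 488 CPM in the other two libraries of its group. Ly6g, a defining neutrophil gene, did not exceed 5 counts in any library. The highest counts in a bone marrow library were 8302 for S100a8 and 5720 for S100a9, against 169 for Camp, the next of the 8. These neutrophil sums therefore rest mostly on S100a8 and S100a9. Libraries called high in neutrophil genes below are those with this sum over 1500 CPM, which does not show that they held neutrophils. KO M0 libraries differed by treatment in the same list of LPS and IFN-γ response genes, which summed to 63.3 to 153 CPM with vehicle and 952 to 5017 CPM with AP-3-84, while WT M0 libraries held 1455 to 3184 and 2195 to 2580 CPM. In KO M0 vehicle libraries, 3 to 5 of those 11 genes were at 0. This sum gives most weight to abundant genes. The highest counts in a bone marrow library were 290444 for Saa3, 22001 for Marco, 5686 for Acod1 and 5554 for Il1b, against 147 for Il6 and 70 for Nos2. A shift of the sum can therefore rest on few of the 11 genes.

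Of the 6 genes, 4 matched a RefSeq promoter (GRCm38.p6, 250 bases before to 50 bases after the start site). The 250 bases before the start are shown for Gclm and Slc7a11 because these were the genes with matches to the motifs of the factors named above. Capitals in Gclm mark GCACCGTCA, the reverse-strand match to TGACNNNGC, the core of the antioxidant response element bound by NRF2, which begins 134 bases before the start. Capitals in Slc7a11 mark TGATGCAA and TTGCATCA, a forward and a reverse match to TGATGNAA, the core of the composite element of CCAAT-enhancer-binding proteins and ATF4, which begin 66 and 47 bases before the start. The sequences run 5′ to 3′ in the direction of the gene.
Gclm, chr3:122245307-122245556, plus strand: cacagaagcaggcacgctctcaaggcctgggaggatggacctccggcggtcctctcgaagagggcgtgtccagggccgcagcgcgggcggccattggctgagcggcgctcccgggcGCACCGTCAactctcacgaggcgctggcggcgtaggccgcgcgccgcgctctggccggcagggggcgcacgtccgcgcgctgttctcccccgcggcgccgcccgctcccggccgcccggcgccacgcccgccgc
Slc7a11, chr3:50443614-50443863, minus strand: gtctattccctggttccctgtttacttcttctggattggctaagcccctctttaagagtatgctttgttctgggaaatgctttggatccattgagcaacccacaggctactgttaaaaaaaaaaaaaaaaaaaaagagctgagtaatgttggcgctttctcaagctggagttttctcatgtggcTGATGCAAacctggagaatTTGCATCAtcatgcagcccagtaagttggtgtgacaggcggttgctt
On either strand, TGACNNNGC was present in 12.4% and TGATGNAA in 3.97% of 32851 mouse promoters of the same length, and 2 or more matches to TGATGNAA were present in 0.07%. No match to either was found in the windows of Gss and Slc3a2, which says only that these letters are not there. The Slc3a2 window (chr19:8713848-8714147, minus strand) lies inside the gene model used here, which reaches 8723369. The bases before the outermost start of Slc3a2 were therefore not searched. Gss shares exon sequence on the opposite strand with Acss2. Gclm shares exon sequence on the opposite strand with Gm17494, which had up to 1368 counts in a peritoneal library. Its log2 fold change with AP-3-84 was -0.22 in ascites and 0.18 in thioglycollate cells, and its part was not tested. On the same strand, Gclm overlaps the pseudogene Gm6061. Of 30-base stretches in the last 500 transcript bases, 9.28% for Gclm, 6.12% for Slc7a11 and 3.31% for Slc3a2 were found in other genes. The gene sharing most with Gclm was the abundant Ppia. The sources used here do not say whether counting used strand, so counts of these genes could be mixed.

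AP-3-84 raised 5 of the 6 genes in both peritoneal populations. Gclc, Gclm, Gss, Gsr and Slc7a11 rose in ascites macrophages, where 1.69% of 16955 genes tested were called higher at an adjusted p under 0.05 (edgeR's quasi-likelihood test, Benjamini-Hochberg adjustment over all genes tested). The same 5 genes rose in thioglycollate macrophages, against a background of 2.51% called higher. Slc3a2, the shared heavy chain, did not pass the test in either. Of the 6 genes, 1 rose in WT M0 (Gclc, background 0.144%) and 1 in KO M0 (Slc7a11, background 12.1%). None passed in WT M1 (0.017% called higher), WT M2 (0.229%), KO M1 (0%) or KO M2 (0.034%). In these 4 populations an unadjusted p under 0.05 by edgeR was reached by 3, 2, 0 and 4 of the 6 genes. Over all 11779 genes tested it was reached by 857, 1386, 206 and 1454. DESeq2 called 0, 0, 0 and 1 of the 6. In WT M0, DESeq2 called 4 of the 6. The share of all genes called by DESeq2 was not computed. None of the 6 was called lower in any population by edgeR or DESeq2. The share of all genes called lower by edgeR was 0.1% in ascites, 1.82% in thioglycollate, 0% in WT M0, 0% in WT M1, 0.976% in WT M2, 8.57% in KO M0, 0% in KO M1 and 0.017% in KO M2.

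The 6 genes can also be read by whether libraries overlap. All 3 AP-3-84 libraries lay above all 3 vehicle libraries for 6 of 6 genes in ascites and 6 of 6 in thioglycollate macrophages, where this held for 9.86% and 12.7% of all genes tested. It held for 4 of 6 in WT M0 (9.08%), 3 in WT M1 (9.6%), 2 in WT M2 (7.98%), 2 in KO M0 (15.4%), 0 in KO M1 (2.79%) and 4 in KO M2 (6%). The median log2 fold change of the 6 genes was 0.95 in ascites, 0.93 in thioglycollate, 1.19 in WT M0, 0.50 in WT M1, 0.12 in WT M2, 0.57 in KO M0, 0.10 in KO M1 and 0.86 in KO M2. The median over all genes tested lay between -0.03 and 0.03 in every one of these comparisons.

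**Figure D1:**
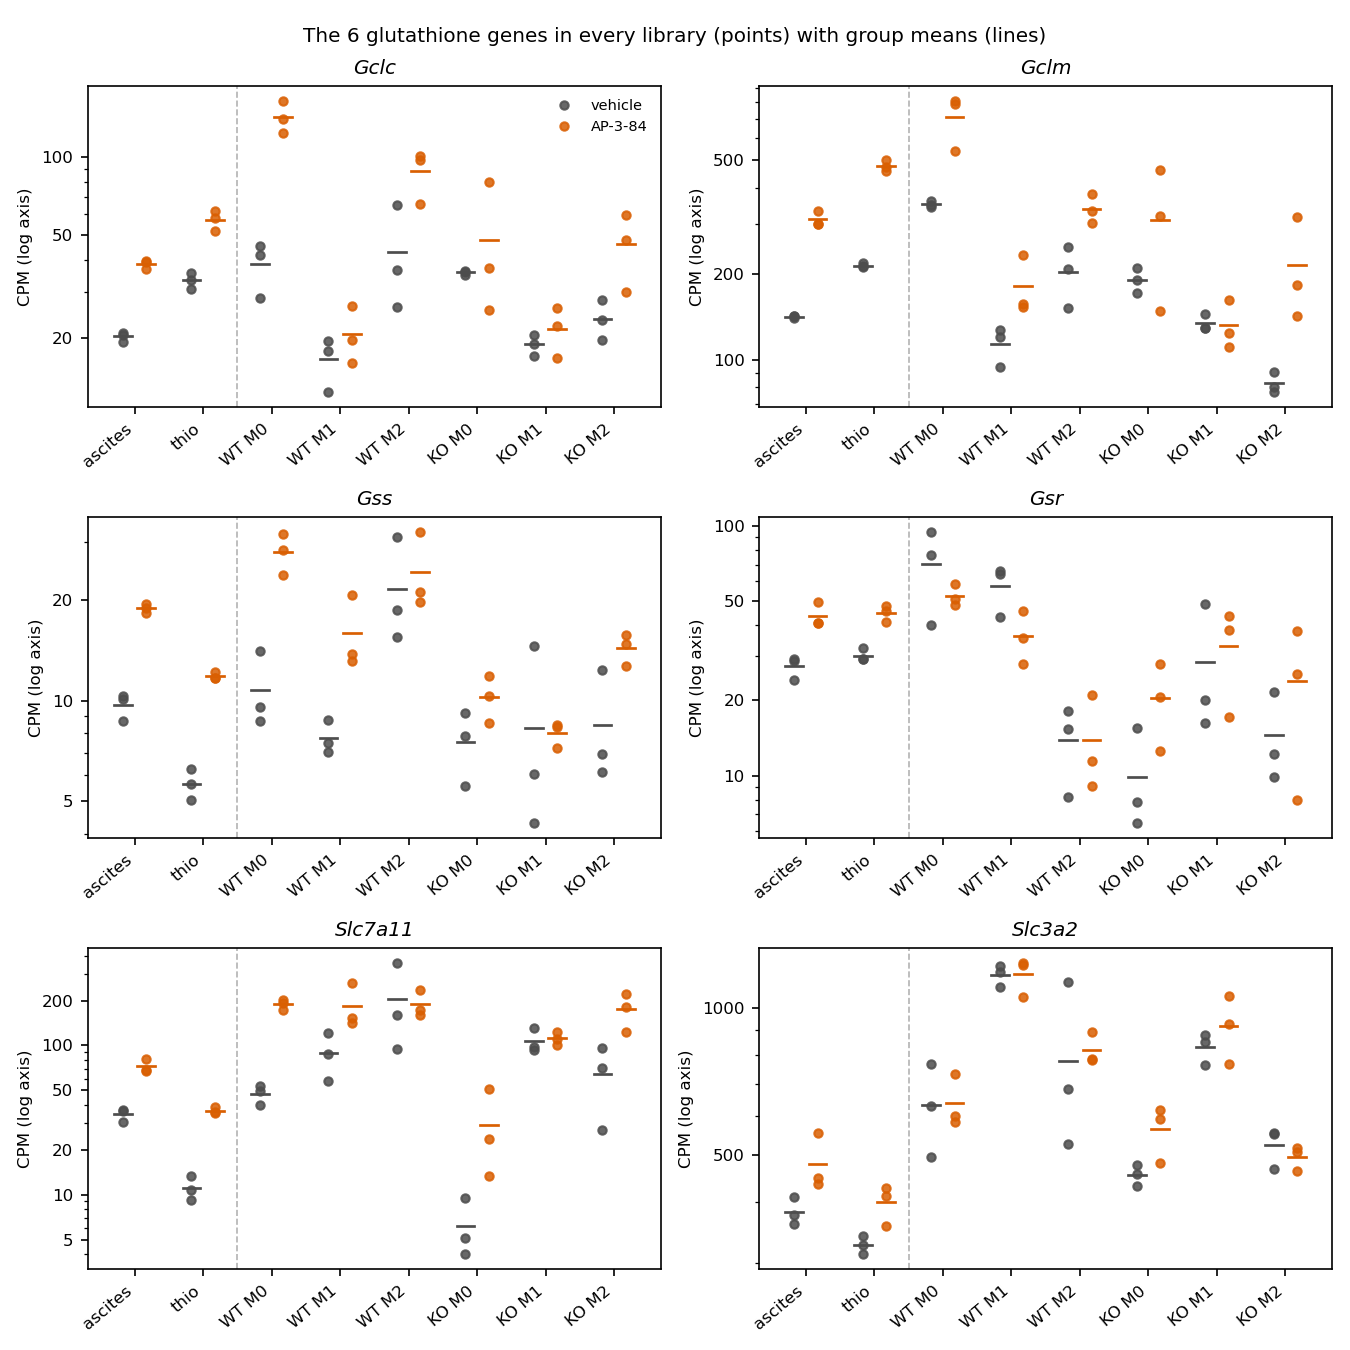
Each panel shows 1 gene, with the 8 macrophage populations on the horizontal axis and CPM on a logarithmic vertical axis. Points are single libraries with vehicle or AP-3-84 and lines are group means of 3 libraries. In the ascites and thioglycollate columns the AP-3-84 points lie above the vehicle points for all 6 genes, while in KO M1 they overlap for all 6.

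Gclc, the catalytic subunit of the rate-limiting ligase (chr9:77754535-77794485, plus strand, GRCm38), rose 1.90-fold in ascites and 1.71-fold in thioglycollate macrophages. The ascites libraries held 20.5, 20.9 and 19.3 CPM with vehicle and 39.7, 39.4 and 36.7 CPM with AP-3-84. The thioglycollate libraries held 33.5, 30.8 and 35.6 against 61.6, 58.0 and 51.5 CPM. In both, the lowest AP-3-84 library was well above the highest vehicle library, with log2 fold changes of 0.93 (SE 0.0936, adjusted p = 9.97e-06) and 0.78 (SE 0.0916, adjusted p = 6.84e-05). The largest change of Gclc was in WT M0 macrophages, from 41.7, 45.4 and 28.4 to 165, 140 and 123 CPM, a log2 fold change of 1.89 (SE 0.318, adjusted p = 0.00642). That call was lost without AP-3-84 replicate 1 (log2 fold change 1.77, adjusted p = 0.0777), without vehicle replicate 1 (1.95, 0.0646) or without vehicle replicate 3 (1.71, 0.0826). In WT M2 the values went from 65.4, 36.5 and 26.3 to 97.6, 65.7 and 101 CPM, a log2 fold change of 1.04 (adjusted p = 0.116). Vehicle replicate 1 of WT M2 was the highest of its group and had the high sums of neutrophil and LPS response genes. Without it the log2 fold change was 1.48 (adjusted p = 0.0311). In KO M0 the vehicle libraries held 36.16, 35.09 and 35.97 CPM and the AP-3-84 libraries 37.1, 25.7 and 80.2 CPM, so that 1 library was below and 1 far above the vehicle range. Gclc did not pass the test in WT M1, KO M1 or KO M2, where its log2 fold changes were 0.33, 0.19 and 0.96.

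Gclm, the modifier subunit that makes the ligase more efficient (chr3:122245557-122270732, plus strand), had the smallest standard errors of the 6 in peritoneal cells. Its ascites libraries held 142, 142 and 140 CPM with vehicle and 333, 299 and 300 CPM with AP-3-84. Its thioglycollate libraries held 218, 212 and 211 against 459, 472 and 500 CPM. The groups were far apart relative to their spread, and the log2 fold changes were 1.14 (SE 0.0595, adjusted p = 3.38e-09) and 1.16 (SE 0.0593, adjusted p = 2.80e-09). These 2 calls held under all 13 alternative settings tried. Gclm lay above vehicle without overlap in 4 bone marrow populations without passing the test. In WT M0 it went from 349, 342 and 361 to 811, 786 and 539 CPM (log2 fold change 1.02, adjusted p = 0.166). In KO M2 it went from 76.9, 90.3 and 80.4 to 142, 183 and 317 CPM (1.37, SE 0.284, adjusted p = 0.0586), and the call was gained without AP-3-84 replicate 1 (1.62, adjusted p = 0.0160) or without vehicle replicate 1 (1.33, adjusted p = 0.0221). In KO M0, AP-3-84 replicate 2 was at 148 CPM, below the vehicle libraries at 172 to 209 CPM, while the other two were at 319 and 464. Without that library the KO M0 log2 fold change went from 0.70 (adjusted p = 0.0707) to 1.04 (adjusted p = 0.00601). Ppia, which shares transcript sequence with Gclm, was called higher with AP-3-84 in KO M0 (0.66, adjusted p = 0.00143), and its part was not tested. In KO M1 the 2 groups overlapped fully, at 129, 129 and 145 against 162, 124 and 110 CPM.

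Gss, which completes glutathione (chr2:155563181-155592810, minus strand), rested on 83 to 317 counts in peritoneal and 17 to 125 counts in bone marrow libraries. With AP-3-84 it went from 8.69, 10.1 and 10.4 to 19.5, 18.4 and 18.9 CPM in ascites macrophages, a log2 fold change of 0.96 (SE 0.130, adjusted p = 0.000209). In thioglycollate macrophages it went from 5.62, 5.04 and 6.24 to 11.7, 12.2 and 11.7 CPM, a log2 fold change of 1.07 (SE 0.137, adjusted p = 0.000142). The libraries did not overlap in either population. Acss2, the acetyl-CoA synthetase gene that overlaps Gss on the other strand, rose in thioglycollate macrophages too (1.32, adjusted p = 0.00301) and did not pass in ascites (0.50, adjusted p = 0.405), with at most 168 counts in a library. Its part in the Gss counts was not tested. In WT M0, Gss went from 14.1, 9.56 and 8.69 to 28.3, 23.9 and 31.6 CPM (1.36, adjusted p = 0.0765), and in WT M1 from 7.45, 8.74 and 7.05 to 13.1, 13.9 and 20.8 CPM (1.03, adjusted p = 0.420). The libraries of these 2 populations did not overlap, but the changes did not pass the test. The remaining log2 fold changes of Gss ran from -0.03 in KO M1 to 0.76 in KO M2.

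Gsr, the NADPH-dependent reductase (chr8:33652523-33698163, plus strand), rose in both peritoneal populations, with smaller estimates than the ligase genes. Ascites libraries went from 29.2, 28.9 and 24.1 to 40.7, 49.5 and 40.8 CPM (0.67, SE 0.107, adjusted p = 0.00114). Thioglycollate libraries went from 32.4, 29.2 and 29.2 to 47.9, 45.4 and 41.1 CPM (0.57, SE 0.107, adjusted p = 0.00478). In bone marrow cells its replicates spread widely, with 76.3, 94.9 and 40.1 CPM in WT M0 vehicle and 48.3, 51.1 and 58.3 CPM in WT M0 AP-3-84 libraries. The Gsr estimate was negative in 3 bone marrow populations, at -0.42 in WT M0 (95% interval -1.31 to 0.47), -0.66 in WT M1 (-1.57 to 0.26) and -0.02 in WT M2 (-1.07 to 1.02). None of these passed, and the intervals include both directions. In KO M0 the estimate was 1.03 (adjusted p = 0.170).

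Slc7a11, the cystine-glutamate exchanger (chr3:49892526-50443614, minus strand), had the highest estimate of the 6 genes in thioglycollate, WT M0, WT M1, KO M0 and KO M2 macrophages. In ascites cells it went from 30.7, 36.3 and 37.1 to 81.6, 67.2 and 68.1 CPM (1.06, SE 0.120, adjusted p = 2.40e-05). In thioglycollate cells it went from 13.3, 10.7 and 9.22 to 38.5, 35.5 and 35.6 CPM (1.72, SE 0.129, adjusted p = 3.91e-07). The thioglycollate cells started lower, and their AP-3-84 libraries fell in or just above the vehicle range of the ascites cells. In KO M0 the vehicle libraries held 9.43, 4.00 and 5.14 CPM, from 36, 13 and 19 counts, and the AP-3-84 libraries 23.7, 13.3 and 51.1 CPM. This was a 4.66-fold rise (log2 fold change 2.22, SE 0.551, adjusted p = 0.00541), called under all 14 alternatives tried, and 1.56 (adjusted p = 0.0428) without AP-3-84 replicate 3. The sum of LPS and IFN-γ response genes given above was higher in the same libraries, and the part of these genes in the KO M0 change was not tested. In WT M0 the libraries went from 39.7, 53.8 and 49.3 to 192, 174 and 200 CPM, with no overlap, but the difference missed the threshold (1.99, SE 0.456, adjusted p = 0.0806). In WT M1 the libraries went from 87.9, 122 and 57.9 to 152, 140 and 261 CPM (1.05, adjusted p = 0.574), and in KO M2 from 96.3, 70.3 and 27.3 to 124, 182 and 221 CPM (1.44, adjusted p = 0.187). Neither passed, although the KO M2 change did without vehicle replicate 1 (1.84, adjusted p = 0.0398).

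In WT M2 and KO M1 the Slc7a11 groups overlapped. WT M2 vehicle libraries held 359, 160 and 94.4 CPM and AP-3-84 libraries 173, 159 and 234 CPM, a log2 fold change of -0.12 (adjusted p = 0.957). The library at 359 CPM is the one with 3738 CPM of neutrophil genes and 6452 CPM of LPS and IFN-γ response genes, and without it the estimate was 0.56. KO M1 libraries held 92.6, 98.0 and 131 against 124, 101 and 110 CPM.

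Slc3a2, the heavy chain (chr19:8706882-8723369, minus strand), was called in no population by edgeR. Ascites libraries held 361, 376 and 410 CPM with vehicle and 554, 436 and 449 CPM with AP-3-84 (0.33, SE 0.0890, adjusted p = 0.0896). Thioglycollate libraries held 341, 327 and 314 against 429, 358 and 412 CPM (0.29, SE 0.0892, adjusted p = 0.0893). The libraries did not overlap, and the 95% intervals of 0.15 to 0.50 and 0.11 to 0.46 were below those of Slc7a11 in the same cells. Without thioglycollate AP-3-84 replicate 2 the change passed narrowly (0.36, adjusted p = 0.0495). With no filter on low counts Slc3a2 passed in ascites (adjusted p = 0.000483) and thioglycollate cells (0.00315), and it also passed in thioglycollate cells with only the groups compared in the fit. DESeq2 did not call it in either. In the 6 bone marrow populations the Slc3a2 log2 fold change lay between -0.08 and 0.31, with 95% intervals that reached up to 0.66 in KO M0.

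**Figure D2:**
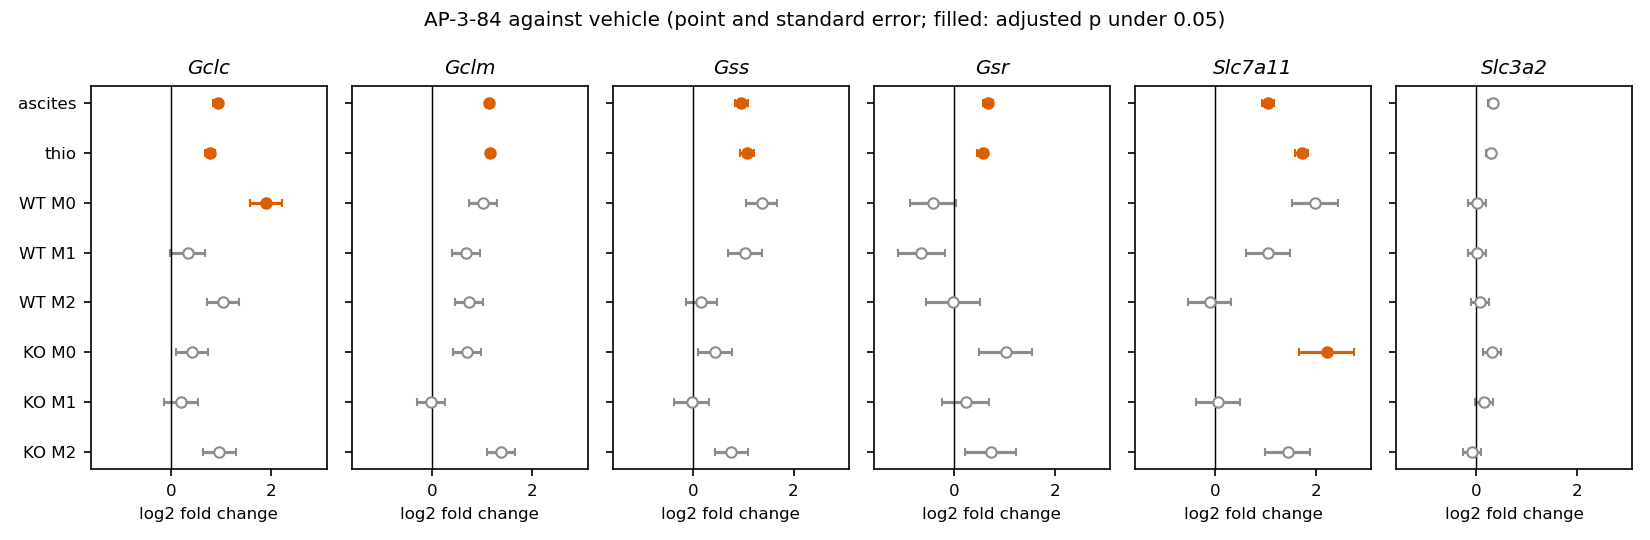
Each panel shows 1 gene, with the log2 fold change of AP-3-84 against vehicle on the horizontal axis and the 8 populations on the vertical axis. Points are estimates, bars are standard errors and filled points have an adjusted p under 0.05. Filled are 5 genes in ascites and thioglycollate cells, Gclc in WT M0 and Slc7a11 in KO M0, and all Slc3a2 points are open.

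The calls in peritoneal cells depended on fitting the 12 deep libraries apart from the 36 shallower ones. With all 48 libraries in 1 fit, which has 1 shared estimate of the spread, only Gclm kept its call in ascites, and Gclm and Slc7a11 in thioglycollate macrophages. The log2 fold changes then were 0.91 for Gclc, 0.94 for Gss, 0.66 for Gsr and 1.04 for Slc7a11 in ascites cells, so the estimates moved little while the adjusted p rose to between 0.0732 and 1. The same fit called 4 of the 6 genes in WT M0.

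The difference between 2 responses was tested for 8 pairs of populations, and 1 of 6 genes passed in 1 pair. The Gclc response was smaller in KO M0 than in WT M0 by 1.48 on the log2 scale (log2 difference -1.48, SE 0.447, adjusted p = 0.0217), where 6.99% of genes had a lower and 17% a different response. The 2 responses themselves were 1.89 in WT M0 and 0.41 in KO M0. The call was lost without KO M0 AP-3-84 replicate 1 (adjusted p = 0.0658) or 2 (0.0833), without WT M0 AP-3-84 replicate 1 (0.0636) and without WT M0 vehicle replicate 3 (0.0568), and with only the 4 groups compared in the fit (0.0600). Without KO M0 AP-3-84 replicate 3, the library with the highest Gclc, the difference was -2.07 (adjusted p = 0.000265). The differences between responses of Slc7a11 did not pass. They were -2.10 for WT M2 against WT M0 (adjusted p = 0.165), -2.16 for KO M1 against KO M0 (0.0657) and -0.67 for ascites against thioglycollate cells (0.299). No gene of the 6 passed in the other 7 pairs by edgeR, where 1, 1, 1, 1, 2, 1 and 0 had an unadjusted p under 0.05 for ascites against thioglycollate, KO M1 against WT M1, KO M2 against WT M2, WT M1 and WT M2 against WT M0, and KO M1 and KO M2 against KO M0. In the same order, 1295 of 16955 genes, then 831, 1815, 799, 1361, 2583 and 3544 of 11779, had such a p. Again in that order, 0.118%, 0.00849%, 1.77%, 0.0255%, 0.136%, 6.12% and 15.8% of all genes were called. DESeq2 called 1 of the 6 in KO M0 against WT M0, in WT M2 against WT M0 and in KO M1 against KO M0. The intervals were wide, from -2.48 to -0.64 for Gclc in WT M1 against WT M0, so a missed threshold does not show equal responses.

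The transcripts of the regulators were followed beside those of their targets. Nfe2l2, which encodes NRF2, its adaptor-repressor Keap1 and the competing repressor Bach1 were called in no population, with log2 fold changes between -0.53 and 0.76 for Nfe2l2, -0.14 and 0.39 for Keap1 and -0.09 and 0.43 for Bach1. Atf4 rose in ascites (0.44, adjusted p = 0.00782), thioglycollate (0.68, adjusted p = 0.000115) and KO M0 macrophages (1.04, adjusted p = 0.000202). Of the 21 NRF2 regulators and other targets, 10 rose in ascites, 11 in thioglycollate, 2 in WT M0 and 4 in KO M0 macrophages, and 1 fell, in WT M2. The shares of all genes called higher were 1.69%, 2.51%, 0.144% and 12.1% in these 4 populations, so the 4 of 21 in KO M0 stand against a far higher background than the 2 in WT M0. Hmox1, the heme oxygenase gene, rose by 1.63 in ascites and 1.49 in thioglycollate cells. Nqo1, a quinone reductase, rose by 0.97 and 0.94, and Txnrd1, the reductase of the parallel thioredoxin system, by 0.84 and 0.81. Srxn1, which repairs peroxiredoxins, was called higher in 4 populations: ascites, thioglycollate (1.29), WT M0 (1.72) and KO M0 cells (0.93, where libraries overlapped). Txnrd1 rose by 0.86 in KO M0 cells. The medians of this list were 0.37, 0.40 and 0.47 in ascites, thioglycollate and WT M0 cells, below those of the 6 glutathione genes.

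Of 20 tested ATF4 regulators and other targets, 4 rose in ascites, 9 in thioglycollate and 9 in KO M0 macrophages, where 2 fell (12.1% of all genes were higher and 8.57% lower in KO M0). Trib3, a pseudokinase induced by stress, rose by 1.09, 2.14 and 3.00 in these populations. Asns, asparagine synthetase, rose by 2.72 in thioglycollate cells, and Ddit3, the stress factor CHOP, by 0.62 in thioglycollate and 1.07 in KO M0 cells. Chac1, which degrades glutathione, rose by 3.39 in KO M0 cells (adjusted p = 0.000732), the only 1 of 7 or 8 tested glutathione breakdown genes called in any population.

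Genes that feed or use glutathione were counted in the same way, against the same shares of all genes called higher, and 0.1%, 1.82%, 0.976% and 8.57% called lower in ascites, thioglycollate, WT M2 and KO M0 cells. Of 10 or 11 tested genes of cysteine, glutamate and glycine supply, 1 rose in ascites, 2 in thioglycollate and 3 in KO M0 cells, where 1 fell. They included the glycine transporter Slc6a9, which rose by 3.16 in thioglycollate cells, the neutral amino acid carrier Slc38a2, which rose by 0.58 in ascites and 0.61 in thioglycollate cells, and Slc1a4, which rose by 3.20 in KO M0 cells. Of 28 or 29 glutathione-using enzymes and exporters, 5 rose and 1 fell in ascites, 3 rose and 1 fell in thioglycollate, 1 rose and 1 fell in WT M2, and 3 rose and 6 fell in KO M0 cells, where the 3 of 28 are near the background. The exporter Abcc1 rose by 0.68 and 0.79 in the 2 peritoneal populations, and Ltc4s, the leukotriene C4 synthase, fell by 2.14 in KO M0 cells. Of 14 NADPH supply genes, 2 rose in ascites, 4 rose and 2 fell in thioglycollate and 3 rose in KO M0 cells, among them Mthfd2, a mitochondrial folate enzyme, by 1.65 in thioglycollate and 2.84 in KO M0 cells. Of the 4 other light chains that pair with Slc3a2, Slc7a5 (2.40) and Slc7a7 (1.14) rose in KO M0 and Slc7a8 fell by 0.42 in thioglycollate cells. In WT M1, KO M1 and KO M2 cells, where 2, 0 and 6 of 11779 genes were called in all by edgeR, none of these lists held a called gene.

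**Figure D3:**
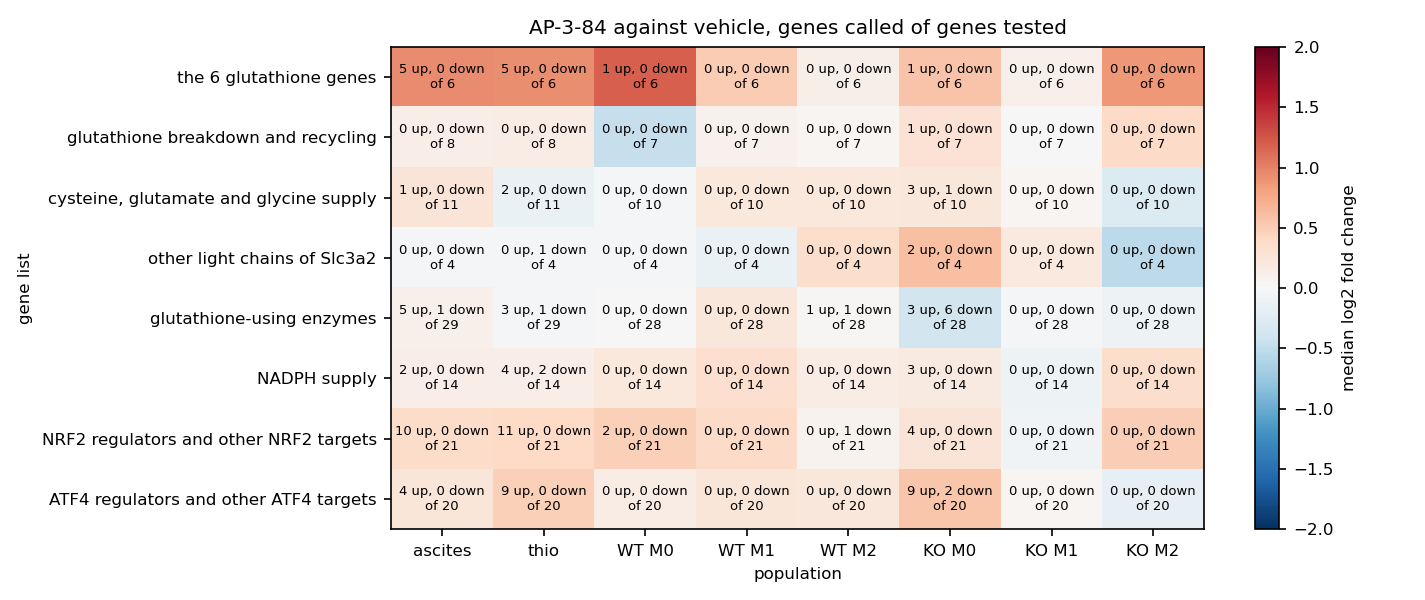
Rows are the 6 glutathione genes and the 7 other gene lists, columns are the 8 populations, and colour is the median log2 fold change of AP-3-84 against vehicle over the tested genes of a list. Cells print how many genes were called higher and lower of those tested. Calls gather in the ascites, thioglycollate and KO M0 columns, with 5 of 6 glutathione genes and 10 or 11 of 21 NRF2 genes in the first 2.

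With vehicle, the 2 peritoneal populations differed in 4 of the 6 genes, in both directions. In ascites against thioglycollate macrophages 20.3% of genes were called higher and 13.4% lower. Slc7a11 was higher in ascites cells by 1.65 on the log2 scale (adjusted p = 1.40e-08), with 30.7 to 37.1 against 9.22 to 13.3 CPM, and Gss by 0.79 (adjusted p = 0.000191), with 8.69 to 10.4 against 5.04 to 6.24 CPM. Both ligase subunits were lower in ascites cells, Gclc by -0.72 (adjusted p = 8.80e-06) and Gclm by -0.60 (adjusted p = 3.09e-07). Slc3a2 (0.22, adjusted p = 0.0650) and Gsr (-0.14) did not pass. Acss2, the gene overlapping Gss, was also higher in ascites cells (1.43, adjusted p = 9.57e-05). Genes of epithelial, mesothelial and ID8 cells summed to 212 to 272 CPM in ascites and 2.94 to 5.30 CPM in thioglycollate libraries, and their part in these differences was not tested.

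Polarization of WT bone marrow macrophages went with higher levels of some of the 6 genes and lower levels of others. Against M0, M1 cells (8.01% of genes higher, 7.49% lower) had less Gclm (-1.62, SE 0.284, adjusted p = 0.000224) and less Gclc (-1.23, adjusted p = 0.0120), and more Slc3a2 (0.89, adjusted p = 0.000835). Gclm fell from 342 to 361 CPM in M0 to 94.2 to 127 CPM in M1, and Slc3a2 rose from 496 to 769 CPM to 1102 to 1219 CPM. The Gclc call was lost without M0 vehicle replicate 2 (adjusted p = 0.0536) or M1 vehicle replicate 3 (0.0684). Against M0, M2 cells (12.7% higher, 10.7% lower) had more Slc7a11 (2.10, SE 0.457, adjusted p = 0.00140), more Gss (1.01, adjusted p = 0.0209), less Gsr (-2.33, SE 0.501, adjusted p = 0.00120) and less Gclm (-0.79, adjusted p = 0.0379). Gsr fell from 40.1 to 94.9 CPM in M0 to 8.23 to 18.1 CPM in M2. Slc7a11 without M2 vehicle replicate 1, the library high in neutrophil and LPS response genes, was 1.41 (adjusted p = 0.0234), and Gss was 0.65 (adjusted p = 0.183). With scaling by total counts Gss was 0.79 (adjusted p = 0.0679). The Gss call was also lost without M0 vehicle replicate 2 (0.0862) or 3 (0.0891). The Gclm call was lost without any 1 of the 3 M0 libraries or of M2 replicates 2 and 3, with adjusted p between 0.0741 and 0.163. For Slc3a2 in M2 against M0 (0.30), leaving out M2 replicate 3 gained a call (0.52, adjusted p = 0.0344).

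Between M1 and M2 all 6 genes differed in WT cells, where 11.9% of genes were higher and 13.6% lower in M1. Gsr (2.04, adjusted p = 0.00304) and Slc3a2 (0.58, adjusted p = 0.0141) were higher in M1, and Gss (-1.49, adjusted p = 0.000964), Gclc (-1.38, adjusted p = 0.00255), Slc7a11 (-1.20, adjusted p = 0.0472) and Gclm (-0.84, adjusted p = 0.0270) were higher in M2. Acss2, which overlaps Gss on the other strand, was also lower in M1 (-2.12, adjusted p = 0.0305). It had at most 32 counts in a bone marrow library, and its part in the Gss difference was not tested. The libraries of Slc7a11 and Slc3a2 overlapped. Without M2 vehicle replicate 1, Slc7a11 was -0.52 (adjusted p = 0.424) and Gclm -0.67 (adjusted p = 0.123). Leaving out M1 replicate 1 or 3 also ended the Slc7a11 call (0.107 and 0.172), M1 replicate 3 or M2 replicate 3 the Gclm call (0.0990 and 0.0623), and M2 replicate 2 or 3 the Slc3a2 call (0.0827 and 0.165). Without the 5 libraries high in neutrophil genes Gclc was -0.94 (adjusted p = 0.0610). With only the M1 and M2 vehicle libraries in the fit, Slc3a2 (0.137) and Slc7a11 (0.198) missed the threshold.

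In KO cells the polarization change of Slc7a11 was the largest of any of the 6 genes. It went from 4.00 to 9.43 CPM in M0 to 92.6 to 131 CPM in M1, a 17.02-fold difference (log2 fold change 4.09, SE 0.547, adjusted p = 1.86e-06), and to 27.3 to 96.3 CPM in M2 (3.36, SE 0.544, adjusted p = 2.94e-05). In KO M1 against KO M0, 22.8% of genes were higher and 21.8% lower, and Slc3a2 (0.87, adjusted p = 0.000230), Gsr (1.501, adjusted p = 0.0207) and Gclc (-0.92, adjusted p = 0.0256) were also called. The Gsr call was lost without M0 vehicle replicate 2 (1.29, adjusted p = 0.0816) or 3 (1.36, 0.0741) or M1 vehicle replicate 2 (0.87, 0.201). Without the 5 libraries high in neutrophil genes, KO M1 vehicle is left with replicate 2 alone, the library with 48.9 CPM of Gsr against 16.2 and 20.1, so that setting gives no check of these differences. The Gclc call was lost without any 1 of the 3 M0 libraries or M1 replicates 1 and 2, with adjusted p between 0.0504 and 0.0791. In KO M2 against KO M0 (20.1% higher, 18% lower) Gclm was lower (-1.21, adjusted p = 0.00133). Ppia, which shares transcript sequence with Gclm, was higher there (1.16, adjusted p = 2.91e-07), and its part was not tested. In KO M1 against KO M2 (12.4% higher, 13% lower) Slc3a2 was higher (0.66, adjusted p = 0.00590). Macrophage markers summed to 32556 to 39261 CPM in KO M0, 16154 to 25245 in KO M1 and 6122 to 18666 in KO M2 vehicle libraries, and their part was not tested.

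**Figure D4:**
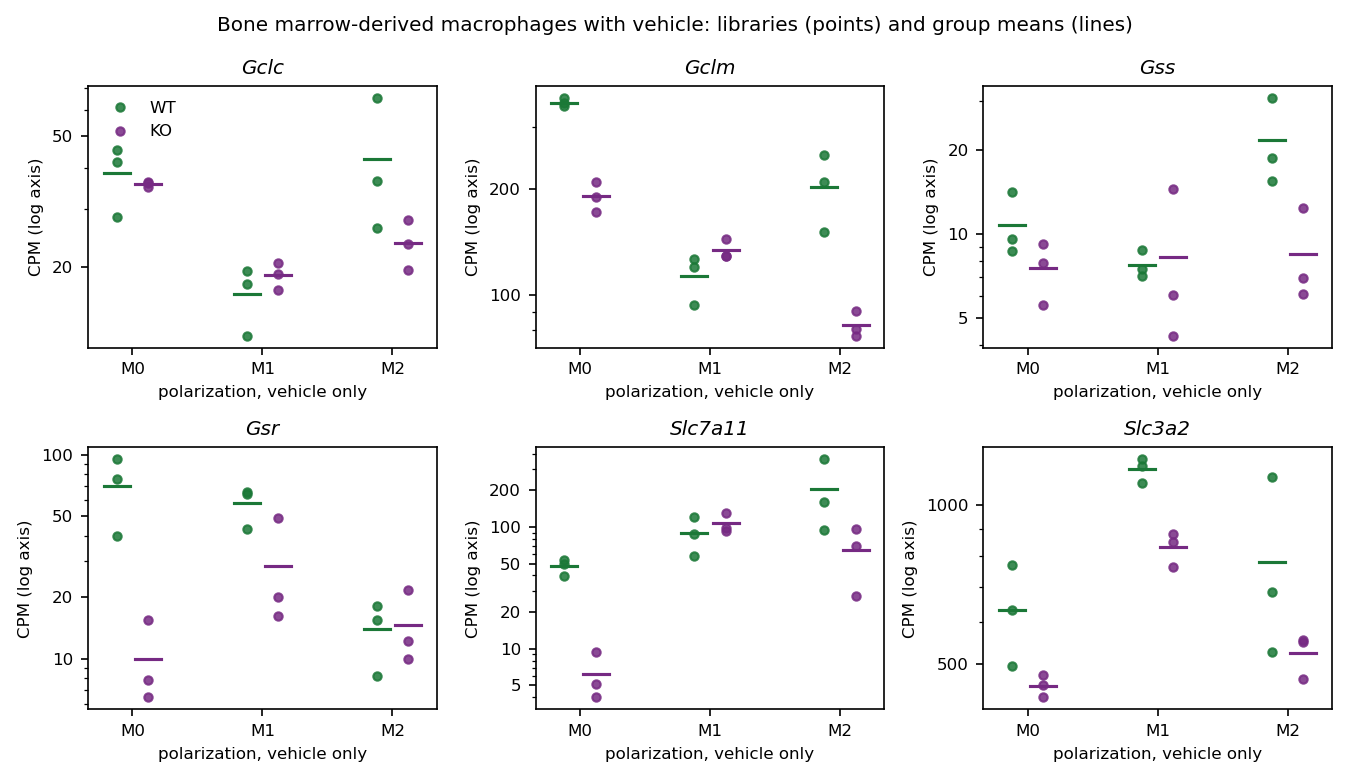
Each panel shows 1 gene in vehicle-treated bone marrow macrophages, with M0, M1 and M2 on the horizontal axis and CPM on a logarithmic vertical axis. Points are libraries of WT and KO cells and lines are means of 3. KO M0 libraries lie below WT M0 libraries for Gclm, Gsr, Slc7a11 and Slc3a2, and Slc7a11 of WT and KO cells overlaps in M1.

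Between genotypes, 4 of the 6 genes differed in M0, 0 in M1 and 3 in M2 cells with vehicle. KO M0 cells had less Slc7a11 than WT M0 cells (-2.92, SE 0.544, adjusted p = 0.000237), less Gsr (-2.81, SE 0.517, adjusted p = 0.000188), less Gclm (-0.88, adjusted p = 0.0154) and less Slc3a2 (-0.47, adjusted p = 0.0407), where 16.4% of genes were higher and 16.8% lower. Slc7a11 stood at 39.7 to 53.8 CPM in WT and 4.00 to 9.43 CPM in KO cells, and Gsr at 40.1 to 94.9 against 6.46 to 15.5 CPM. The sum of LPS and IFN-γ response genes, weighted to the abundant ones, was lower in the same KO M0 vehicle libraries. It stood at 63.3 to 153 against 1455 to 3184 CPM, and the part of these genes was not tested. Fibroblast genes summed to 161 to 288 CPM in KO M0 against 22.7 to 26.2 CPM in WT M0 vehicle libraries, with 0 to 3 of the 6 genes at 0. B cell genes summed to 20.0 to 28.0 against 6.93 to 12.3 CPM, with 4 of 6 genes at 0 in each library, and the part of both lists was not tested. Ppia, which shares transcript sequence with Gclm, was lower in KO M0 as well (-0.91, adjusted p = 2.03e-05), and its part in the Gclm difference was not tested. The Gclm call was lost without KO M0 vehicle replicate 2 (-0.82, adjusted p = 0.0610). The Slc3a2 call was lost without any 1 of the KO M0 vehicle libraries or WT M0 vehicle replicates 1 and 2, with adjusted p between 0.0606 and 0.250.

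In M1 cells no gene of the 6 was called between genotypes by edgeR (5.93% of genes higher, 5.71% lower), and DESeq2 called 0. An unadjusted p under 0.05 by edgeR was reached by 2 of the 6, and by 3272 of all 11779 genes. Macrophage markers summed to 16154 to 25245 CPM in KO M1 and 43700 to 46678 CPM in WT M1 vehicle libraries, and fibroblast genes to 97.5 to 135 and 21.7 to 46.6 CPM. Slc7a11 overlapped there, at 57.9 to 122 CPM in WT and 92.6 to 131 CPM in KO cells, a log2 difference of 0.27 (95% interval -0.60 to 1.13). The M1 against M0 difference of Slc7a11 was larger in KO than in WT cells by 3.18 (SE 0.701, adjusted p = 0.00194), in a comparison where 11.2% of genes had a higher difference. The M2 against M0 difference of Gsr was larger in KO cells by 2.87 (SE 0.731, adjusted p = 0.00511), against 13.9% of genes. Both tests were chosen after the values were seen. Gsr (-1.02, adjusted p = 0.154) passed without KO M1 vehicle replicate 2 (-1.64, adjusted p = 0.0325). In M2 cells (1.21% higher, 2.34% lower) Slc7a11 (-1.66, adjusted p = 0.0363), Gss (-1.35, adjusted p = 0.0164) and Gclm (-1.30, adjusted p = 0.00960) were lower in KO. The sum of macrophage markers, weighted to Lyz2, was lower in the same libraries, at 6122 to 18666 CPM in KO M2 against 25062 to 31079 CPM in WT M2. The part of these markers was not tested. None of these M2 calls held without the 5 libraries high in neutrophil genes, where Slc7a11 was -0.63 (adjusted p = 0.625), Gss -0.89 (0.278) and Gclm -1.12 (0.241). Without WT M2 vehicle replicate 1 alone Slc7a11 was -0.99 (adjusted p = 0.222) and Gss -1.01 (0.110). Without KO M2 vehicle replicate 3 all 3 missed the threshold, at 0.218, 0.114 and 0.0609, and without KO M2 vehicle replicate 2 Slc7a11 did (0.110). With only the 6 libraries compared in the fit none passed, with adjusted p of 0.358, 0.245 and 0.0831, and with scaling by total counts Slc7a11 stood at 0.0510. Slc3a2 in M2 (-0.57, adjusted p = 0.0675) passed without WT M2 vehicle replicate 2 (-0.68, adjusted p = 0.0474) or 3 (-0.80, adjusted p = 0.00789).

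Ordered by mean vehicle level in bone marrow cells, each gene had its own sequence of populations. Slc7a11 was highest in WT M2 (204 CPM), then KO M1 (107), WT M1 (89.1), KO M2 (64.6) and WT M0 (47.6), each overlapping the next, and KO M0 (6.19) stood below all without overlap. Gclm was highest in WT M0 (351), apart from the rest, then WT M2 (203) and KO M0 (190), which overlapped, then KO M1 (134), WT M1 (114) and KO M2 (82.5), each apart from the next. Gss was highest in WT M2 (21.7), apart from the other 5, which lay between 7.52 and 10.8 and overlapped. Slc3a2 was highest in WT M1 (1169), apart from KO M1 (832) but not from the highest WT M2 library, with the rest between 455 and 780 overlapping in turn. Gclc fell into WT M2 (42.7), WT M0 (38.5) and KO M0 (35.7) above KO M2 (23.6), KO M1 (18.8) and WT M1 (16.5), with overlap within each set. WT M2 reached down to 26.3 CPM and overlapped KO M2, which reached 27.9 CPM, while WT M0 and KO M0 stayed above the lower set. For Gsr, from WT M0 (70.4) down to KO M0 (9.92), every neighbour in the order overlapped.

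Across the 12 bone marrow group means of log2 CPM, which share vehicle and treatment structure, Gclc and Gclm had a Pearson r of 0.884 and Slc7a11 and Slc3a2 of 0.533. Over the 36 libraries after group means were subtracted, which share library depth, Gclc had an r of 0.762 with Gclm and 0.789 with Slc7a11, while over the group means Gclc and Slc7a11 had only 0.171. Slc7a11 and Slc3a2 had an r of 0.257 over the libraries. Among genes whose average log2 CPM was at least 3, those most like each of the 6 over the group means were Cbr3 (0.927), Panx1 (0.914) and Gclm (0.884) for Gclc, and Gclc, Panx1 (0.879) and Tshz1 (0.862) for Gclm. For Gss they were Srxn1 (0.953), Panx1 (0.908) and Nqo1 (0.905), and for Gsr Nadk (0.943), Abr (0.939) and Vrk2 (0.917). For Slc7a11 they were Sec22b (0.958), Zdhhc12 (0.941) and Cebpb (0.917), and for Slc3a2 Rnf14 (0.975), Prkaa1 (0.961) and Sptlc2 (0.950). These are descriptions over 12 points, given with no test.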

How the data were processed

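The values are gene counts in 1 table of 48 libraries, deposited by the authors as raw counts. Per the labels' protocols, libraries were made from 100 ng of total RNA with the QuantSeq FWD kit and read as single reads of 75 bases, so counts come from 3′ ends. The submitters' processing notes name RSEM, Bowtie2 and DESeq2 without versions or roles. Genome build, use of strand and counting settings were not given in the sources used here.

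From the counts, edgeR 4.0.16 in R 4.3.3 was used with TMM scaling, its default filter on low counts and the robust quasi-likelihood test. The 12 peritoneal libraries (16955 genes tested) and the 36 bone marrow libraries (11779 genes) were fitted apart because their depths differ. A call was an adjusted p (Benjamini-Hochberg, over all genes tested) under 0.05. There were 28 comparisons: 8 of AP-3-84 with vehicle, 10 between vehicle groups, 8 differences between responses and 2 differences between vehicle comparisons that were added after the values were seen. CPM values use the TMM-scaled library sizes, and log2 CPM a prior count of 2. The 95% intervals were made from the log2 fold change and its SE with a normal approximation, so they can be narrower than the quasi-likelihood test allows. The script was tested on simulated data. No 2 columns were identical. Alternatives were RLE size factors, total-count scaling, DESeq2 1.42.0, no filter, only the groups compared, all 48 libraries in 1 fit, a replicate block, each library left out and, added later, the 5 libraries high in neutrophil genes left out.

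The 6 genes and the 7 pathway lists were chosen with earlier results of these data known. Of each list, the text names at most the 2 called genes with the largest change per comparison, besides a few regulators and stress genes that could always be named. Likeness was taken among genes whose average log2 CPM was at least 3.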

Additional observations from a re-analysis of the deposited data

Results flagged for a closer look

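Differences of the 6 genes were tested in 8 comparisons of responses and 2 of vehicle differences, and 4 passed the test of the difference itself. The AP-3-84 response of Gclc, the catalytic ligase subunit, was lower in KO M0 than in WT M0 macrophages, with a log2 difference of -1.48 (SE 0.447, adjusted p = 0.0217 by edgeR). In that comparison 6.99% of genes had a lower and 17% a different response. The call was lost without KO M0 AP-3-84 replicate 1 (adjusted p = 0.0658) or 2 (0.0833), or WT M0 AP-3-84 replicate 1 (0.0636). It was also lost without WT M0 vehicle replicate 3 (0.0568) or with only the 4 groups compared in the fit (0.0600). The other 3 concern vehicle-treated cells, in tests added after the values were seen. The M1 against M0 difference was higher in KO than in WT cells for the cystine exchanger Slc7a11, by 3.18 (SE 0.701, adjusted p = 0.00194), and for the modifier subunit Gclm, by 1.12 (SE 0.394, adjusted p = 0.0420), where 11.2% of genes had a higher difference. The Gclm call was lost without any 1 of 11 of the 12 libraries involved, the exception being WT M1 vehicle replicate 2, with adjusted p between 0.0517 and 0.0921. Ppia, which shares transcript sequence with Gclm, was higher in M1 than in M0 in KO cells (0.69, adjusted p = 0.000275) but not in WT cells (0.01, 0.975). Gm17494, which overlaps Gclm on the other strand, was higher in KO M1 than in WT M1 (2.45, 0.0220), with at most 50 counts in a bone marrow library. The part of both was not tested. The M2 against M0 difference was higher in KO than in WT cells for Gsr, the reductase, by 2.87 (SE 0.731, adjusted p = 0.00511), where 13.9% of genes had a higher difference. These 3 comparisons share the M0 vehicle libraries, in which the KO cells held less Slc7a11, Gclm and Gsr and had a lower sum of LPS and IFN-γ response genes. Gsr in the M1 comparison (1.79, adjusted p = 0.0657) passed without KO M0 vehicle replicate 1 (2.29, adjusted p = 0.0362), KO M1 vehicle replicate 1 (2.07, adjusted p = 0.0402) or WT M0 vehicle replicate 3 (2.08, adjusted p = 0.0377). Slc7a11 in the M2 comparison (1.25, adjusted p = 0.186) passed without WT M2 vehicle replicate 1 (1.93, adjusted p = 0.0322).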

How the results depend on the processing

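Every value that passed the test kept its direction under every alternative tried, while the number of the 6 genes called moved with the method. The counts below are of the 6 genes, with the reported count in brackets, and the cause was not tested. The share of all genes called under each alternative was not computed. A higher count can therefore go with more calls among all genes, and is not a result about the 6. With all 48 libraries in 1 fit, AP-3-84 gave 1 call in ascites (5), 2 in thioglycollate (5), 4 in WT M0 (1), 1 in WT M2 (0), 2 in KO M0 (1) and 1 in KO M2 (0). That fit gave 2 calls for KO M1 against M2 (1) and 1 for the response in KO M1 against KO M0 (0). DESeq2 gave 4 calls in WT M0, 1 in KO M2, 2 for KO M1 against M2, and 1 each for the response in WT M2 against WT M0 and in KO M1 against KO M0. Without a filter on low counts there were 4 calls in WT M0, 2 in WT M1, 2 in WT M2, 3 in KO M0, 3 in KO M2, 4 for KO M1 against M2, 1 between genotypes in M1 (0) and 5 in M2 (3). That setting also gave 2 calls for the response in KO M0 against WT M0 (1), 2 for the vehicle difference of M2 against M0 between genotypes (1), and 1 each for 6 further differences of responses: ascites against thioglycollate, KO M1 against WT M1, KO M2 against WT M2, WT M1 and WT M2 against WT M0, and KO M1 against KO M0 (0 each). With only the compared groups in the fit there were 4 calls in WT M0, 2 for KO M1 against M2, 1 between genotypes in M1, 0 between genotypes in M2 and 0 for the response in KO M0 against WT M0. Leaving out the 5 libraries high in neutrophil genes leaves KO M1 vehicle with replicate 2 alone, assumed to vary like the other groups, so its KO M1 values rest on that library. In that setting there were 3 calls in WT M0, 3 for WT M1 against M2 (6), 2 for KO M1 against M2, 0 between genotypes in M2 and 2 for the vehicle difference of M2 against M0 between genotypes.

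Values that changed sign had not passed the test. For AP-3-84 in WT M1, Slc3a2 was -0.00258 with all 48 libraries in 1 fit, -0.00208 with DESeq2 and -0.00210 with RLE size factors. Scaling by total counts gave 0.10 for Gsr and 0.017 for Slc7a11 in WT M2, 0.018 for Gclm and 0.015 for Gss in KO M1, and -0.069 for Gclc in WT M2 against M0. Leaving out the 5 libraries high in neutrophil genes gave 0.20 for Gsr and 0.56 for Slc7a11 in WT M2, and, with 1 KO M1 vehicle library, -0.25 for Gsr and 0.86 for Gss in KO M1. It also gave -0.30 for Gclc and -0.071 for Slc3a2 in WT M2 against M0, -0.80 for Gss in KO M1 against M0 (again 1 KO M1 library), and between genotypes -0.82 for Gss in M1 (likewise) and -0.12 for Gsr in M2.

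With each library left out in turn, counts of AP-3-84 calls ran from 0 to 1 in WT M0 and WT M2, 1 to 2 in KO M0 and 0 to 2 in KO M2. Between vehicle groups they ran from 2 to 4 for WT M2 against M0 and KO M1 against M0, and between genotypes from 2 to 4 in M0, 0 to 1 in M1 and 0 to 4 in M2. For differences they ran from 0 to 1 for the response in KO M0 against WT M0, 0 to 2 in KO M2 against KO M0, and 1 to 2 for both vehicle differences between genotypes. AP-3-84 values that changed sign ran from -0.18 to 0.72 for Gclc in KO M0, -0.20 to 0.086 for Gclm, -0.051 to 0.86 for Gsr, -0.34 to 0.62 for Gss and -0.037 to 0.23 for Slc7a11 in KO M1, and -0.44 to 0.21 for Gsr, -0.089 to 0.50 for Gss, -0.14 to 0.43 for Slc3a2 and -0.45 to 0.56 for Slc7a11 in WT M2. Slc3a2 ran from -0.13 to 0.18 in WT M0 and from -0.050 to 0.071 in WT M1. Between vehicle groups, Gclc ran from -0.30 to 0.40 and Slc3a2 from -0.071 to 0.52 in WT M2 against M0, and Gss from -0.53 to 0.44 in KO M1 against M0, -0.71 to 0.33 in KO M1 against M2 and -0.21 to 0.36 in KO M2 against M0. Between genotypes, Gclc ran from -0.29 to 0.023 in M0, Gss from -0.57 to 0.41 in M1 and Gsr from -0.34 to 0.28 in M2.

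With the replicate number as a block, 5 in place of 6 genes were called between WT M1 and M2, where Slc7a11 was -1.16 (adjusted p = 0.0657), and no other call changed. The labels do not say that the numbers pair samples, and no population had all 3 correlations between same-numbered libraries over 0.1. Depth limits the bone marrow values, where Gss had 17 to 125 counts and the lowest count of any of the 6 genes was 13, for Slc7a11.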
